A study of Mus musculus with 8 samples.

Results

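The 9 genes described here encode enzymes and accessory proteins that cut, reduce or spare protein antigen in endosomes: the cathepsins Ctss, Ctsl, Ctsb, Ctsd, Ctsh and Ctsz, the asparaginyl endopeptidase Lgmn, the thiol reductase Ifi30 and the secreted inhibitor Cst3. Their probe sets were taken as all those whose only gene symbol in the array annotation is one of these names, which gave 17 probe sets for 9 of the 18193 genes on the array. All 9 genes passed the filter on dim signals, as did 11557 of the 18193 genes, and each of the 9 was above that filter on all 8 arrays. The study concerns extrathymic cells that express Aire, a transcriptional regulator through which thymic epithelium displays antigens of other organs. Mouse RNA was hybridised to 8 Affymetrix expression arrays, in groups of 2: spleen from Aire knockout mice, spleen from Aire wild-type mice, lymph node from Aire knockout mice and lymph node from Aire wild-type mice. Each group has an array A and an array B. The labels give no cell type, sort, strain, age or sex. They do not say which part of Aire is deleted or what the letters mark, and do not give the number of animals behind an array. The p-values here thus measure spread between arrays, and how much of it is spread between animals is not known.

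Cathepsins are proteases made as inactive precursors, sorted to endosomes and lysosomes, and activated as these compartments acidify. In antigen-presenting cells they degrade engulfed protein into peptides and remove the invariant chain from MHC class II, Ctss being the main protease for the last cut of that chain in mouse B cells and dendritic cells and Ctsl serving that role in cortical thymic epithelium. Ifi30 opens disulphide bonds so that proteases can reach their substrates, and Cst3 (cystatin C) is a tight-binding inhibitor of cysteine cathepsins that is abundant in dendritic cells.

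Markers of mature dendritic cells gave signal on every array when summed, and such a sum can rest on its brightest genes. Of 10 marker genes for these cells, 9 were tested, so not every marker was bright. The summed signal of all 10 ranged between 43640 and 52091 in spleen knockout, 51860 and 55378 in spleen wild-type, 42721 and 53773 in lymph node knockout, and 48854 and 66142 in lymph node wild-type arrays. Of the T cell markers 5 were tested, and 5 of 5 were lower in spleen than in lymph node, whereas 6 of 7 B cell markers were higher in spleen, with 0 passing in either list. Of 6 erythroid markers 2 were tested, both higher in spleen than in lymph node, by 2.33 and 2.46 on the log2 scale with 0 passing. The summed signal of the 4 erythroid markers on the array was 439.9 and 304 in spleen knockout, against 435 and 73.5 in spleen wild-type, and 48.2 and 92.3 in lymph node knockout, against 83.1 and 76.3 in lymph node wild-type samples. Here and below, a summed signal is taken over all genes of a list on the array, those too dim to be tested included. Sums of different lists read different probe sets and are not compared with one another. Aire itself had signals of 1009 and 2376 on the spleen knockout arrays, against 5037 and 5204 on the spleen wild-type arrays, and of 791 and 1137 on the lymph node knockout arrays, against 3052 and 3535 on the lymph node wild-type arrays. Where its probe set lies relative to the deleted part is not known, and its difference averaged over tissues of -1.76 on the log2 scale (SE 0.33) had an adjusted p of 0.24 in limma. The Xist signal was 14.6 and 23.1 on the knockout B arrays and at least 3565 on the other 6. That of the Y-linked Eif2s3y was 21.2 and 3.80 on the wild-type A arrays and at least 521 on the other 6. The sex makeup of the RNA thus differed between arrays of the same group, so A and B of a group were not repeats of the same RNA. This pattern was the same in spleen and lymph node for a given genotype and letter. Sex makeup also differed between genotypes, since Xist was low only on knockout arrays and Eif2s3y only on wild-type arrays. The knockout minus wild-type differences below carry this imbalance, and genotype and sex makeup cannot be fully told apart. Whether a spleen and a lymph node array of one genotype and letter come from the same animals is not stated, so placements over both tissues may not rest on 4 independent samples per genotype. As these are bulk samples, fewer cells of a type and less RNA per cell cannot be told apart.

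Stretches of genome upstream of 4 members are shown, which are those whose window at the annotated gene start holds a motif searched for. They are Ctsd, which together with Ctsl varied most widely over the arrays, Ifi30 and Ctss, which varied least, and Cst3, which was lower on the knockout arrays of both tissues. Each is the 250 bases before the gene's annotated start, from RefSeq on GRCm38.p6, written 5′ to 3′ on the gene's own strand, with capitals marking a match on either strand to a short motif. In Ctsd and Ifi30 this is CACGTG, an E-box of the kind that TFEB and MITF, transcription factors of lysosomal genes, recognise. In Ctss and Cst3 it is GAGGAA, a core bound by PU.1, a factor of myeloid cells.
Ctsd, chr7:142387828-142388077, minus strand: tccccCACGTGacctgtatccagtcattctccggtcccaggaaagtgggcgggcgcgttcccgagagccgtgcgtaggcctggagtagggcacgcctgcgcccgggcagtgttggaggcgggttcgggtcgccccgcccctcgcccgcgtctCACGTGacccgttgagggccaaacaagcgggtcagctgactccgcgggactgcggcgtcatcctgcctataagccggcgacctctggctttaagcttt
Ifi30, chr8:70766664-70766913, minus strand: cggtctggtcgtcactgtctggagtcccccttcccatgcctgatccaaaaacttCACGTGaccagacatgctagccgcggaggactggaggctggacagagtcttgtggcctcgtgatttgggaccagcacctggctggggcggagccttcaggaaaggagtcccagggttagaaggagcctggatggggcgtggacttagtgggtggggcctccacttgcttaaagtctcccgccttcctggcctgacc
Ctss, chr3:95526536-95526785, plus strand: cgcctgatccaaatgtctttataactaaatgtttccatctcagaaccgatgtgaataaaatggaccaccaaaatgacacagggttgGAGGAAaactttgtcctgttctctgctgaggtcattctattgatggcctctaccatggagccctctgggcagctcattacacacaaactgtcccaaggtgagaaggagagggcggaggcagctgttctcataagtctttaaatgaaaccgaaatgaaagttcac
Cst3, chr2:148875513-148875762, minus strand: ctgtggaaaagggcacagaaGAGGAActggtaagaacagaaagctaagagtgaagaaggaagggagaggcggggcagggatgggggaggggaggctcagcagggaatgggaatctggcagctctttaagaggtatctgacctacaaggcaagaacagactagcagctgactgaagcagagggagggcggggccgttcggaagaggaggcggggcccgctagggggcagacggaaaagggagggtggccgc
The E-box CACGTG, which reads the same on both strands, lay 245 and 98 bases before the start of Ctsd and 196 bases before that of Ifi30. GAGGAA lay 164 bases before the start of Ctss and 230 before that of Cst3. The matches did not overlap one another. Over all 32851 promoter windows of this length 6.02% held CACGTG, 23.3% held GAGGAA and 13.5% held GAAACT, an interferon response core that none of the printed windows holds. RefSeq gave 8 windows for 7 of the 9 genes, without Ctsb and Ctsh, and 6 of the 8 lay at the annotated gene start. Of the 8, 4 held CACGTG, 2 GAGGAA and 1 GAAACT. Of the 6, 2 held CACGTG, 2 GAGGAA and 0 GAAACT. The windows of Ctsz and Lgmn at the annotated start held none of these motifs and are not printed. Ctsl had no window at its annotated start. A match of letters describes the window and shows no binding.

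Signals of all 9 genes on each array are shown in the plot by gene and group.

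**Figure D1:**
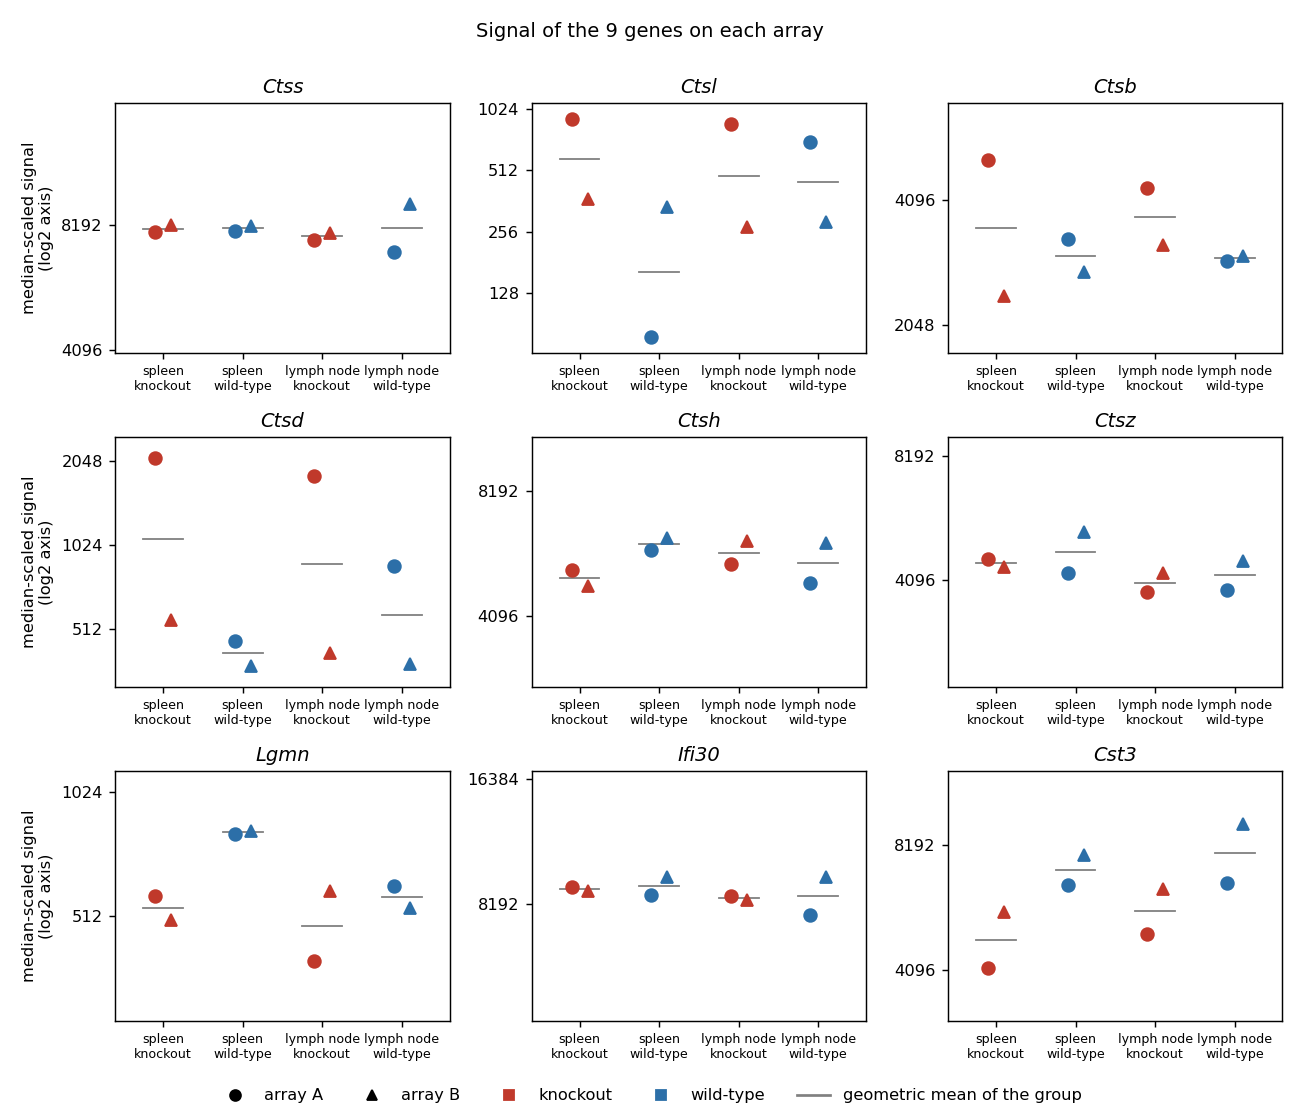
Median-scaled signal of each of the 9 genes (vertical log2 axis, with its own range in each panel, spanning at least 2 log2 units) on the 8 arrays, with circles for arrays A, triangles for arrays B, red for knockout, blue for wild-type and a grey line for the geometric mean of a group of 2. Ctss and Ifi30 stay nearly level, Ctsd and Ctsl are highest on the 2 knockout A arrays, and all 4 Cst3 signals from knockout arrays lie below the 4 from wild-type arrays.

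No member passed the test in any comparison, and the members divided into those nearly level over the arrays and those high or low on particular arrays. With limma at an adjusted p under 0.05, 0 of 9 members were called for knockout minus wild-type in spleen, beside 0% of the 11557 genes tested. The same held in lymph node (0 of 9 members, 0% of genes), averaged over tissues (0 of 9, 0%), for the difference of the knockout effect between spleen and lymph node (0 of 9, 0%) and for spleen minus lymph node (0 of 9, 0%). At an unadjusted p under 0.05, 0 members were called in any of these comparisons, whereas among all genes 3.86% were higher and 4.56% lower in spleen, and 1.74% higher and 1.64% lower in lymph node. Averaged over tissues 3.65% were higher and 4.34% lower, for the difference of effects 1.52% and 1.89%, and between tissues 6.23% and 4.52%. The lowest adjusted p of a member was 0.642 in spleen, 0.9998 in lymph node and 0.670 averaged over tissues. A p that misses the threshold does not show that the values did not differ, and the intervals below give what remains possible.

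Ctss, the class II protease of dendritic cells, was among the steadiest transcripts. Its signals were 7897 and 8194 in spleen knockout and 7953 and 8168 in spleen wild-type samples, and in lymph node they were 7569.7 and 7847 in knockout and 7063 and 9221 in wild-type samples. The highest signal of the 8 was 1.31 times the lowest, and knockout and wild-type overlapped in both tissues. The knockout minus wild-type difference on the log2 scale was -0.03 averaged over tissues (SE 0.21, 95% interval -0.54 to 0.47), with an adjusted p of 0.980. That interval allows a knockout signal between 0.690 and 1.38 times the wild-type one. Its sign depended on the scaling, being 0.06 after quantile normalization and 0.04 without the shift of arrays to a common median. After quantile normalization the 2 lymph node knockout arrays lay above the wild-type ones without overlap, and without the shift they overlapped.

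Ifi30, the interferon-inducible lysosomal thiol reductase, was steadier still. Its 2 spleen knockout arrays had signals of 9015 and 8769, against 8582 and 9514 in spleen wild-type samples. In lymph node the knockout arrays had 8561 and 8354, against 7689 and 9485 for wild-type. Each pair of groups overlapped, although after quantile normalization, and not without the shift, the lymph node knockout arrays lay above the wild-type ones. The averaged difference was -0.02 (SE 0.21, interval -0.51 to 0.47), which turned to 0.08 after quantile normalization and 0.06 without the shift.

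The carboxypeptidase Ctsz and the aminopeptidase Ctsh, both of which trim peptide ends, behaved likewise. For Ctsz the signals were 4605 and 4419 in spleen knockout, against 4265 and 5370.1 in spleen wild-type, and 3837 and 4273 in lymph node knockout, against 3889 and 4568 in lymph node wild-type samples. The averaged difference of Ctsz was -0.07 (SE 0.22), and it reached 0.04 after quantile normalization and 0.00 without the shift. For Ctsh they were 5298 and 4831 in spleen knockout, against 5917 and 6327 in spleen wild-type samples, so the spleen groups did not overlap. In lymph node Ctsh overlapped, at 5459 and 6218 in knockout and 4918 and 6143 in wild-type samples, whereas under both other scalings the 2 knockout arrays there lay above the wild-type ones. Its spleen difference was -0.27 (SE 0.30, interval -0.99 to 0.44), with an adjusted p of 0.845.

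In these 4 genes the pooled spread between arrays of a group was 0.12 on the log2 scale for Ifi30, 0.14 for Ctss, 0.14 for Ctsh and 0.15 for Ctsz. The median of this spread was 0.45 over all genes tested and 0.28 over the 2890 genes in the top 25% by mean signal. Only 1.98% of genes tested had a smaller spread than Ifi30, and 3.31% a smaller one than Ctss. Since all 4 lie above 96.7% of tested genes by mean signal, the comparison with bright genes is the closer one. The quantity was not tested, and signals of different probe sets are not compared as levels.

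Cst3 was the member with the same placement in both tissues. Its signals were 4136 and 5651 in spleen knockout, against 6554 and 7759 in spleen wild-type samples. In lymph node they were 5012 and 6418 in knockout, against 6658 and 9229 in wild-type samples. Every knockout signal lay below every wild-type signal, within each tissue and over all 8 arrays, and under the other scalings the groups remained apart within each tissue, while over all arrays they overlapped both after quantile normalization and without the shift. Of all genes tested 5.71% were likewise lower without overlap in both tissues, and 2.22% had all 4 knockout arrays below all 4 wild-type arrays, with 1.44% having them all above. The averaged difference was -0.51 (SE 0.25, interval -1.10 to 0.07), which is 1.43-fold lower in knockout, with an adjusted p of 0.670.

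Ordered by group mean, Cst3 was highest in lymph node wild-type (7943 ± 1818, SD, n = 2), then spleen wild-type (7156 ± 852), lymph node knockout (5715 ± 994) and spleen knockout samples (4894 ± 1071). Neighbours within a genotype overlapped, and the gap lay between spleen wild-type and lymph node knockout. In spleen the difference was -0.56 (SE 0.35) and in lymph node -0.47 (SE 0.35). Leaving out any single array kept the averaged difference between -0.63 and -0.40, and without both knockout A arrays it was -0.31. The markers of mature dendritic cells differed the same way in part: 6 of 9 tested were lower in spleen knockout and 9 of 9 in lymph node knockout samples, 0 of them passing, with medians of -0.19 and -0.17. Among all genes 57.4% were lower in spleen knockout and 53.2% in lymph node knockout samples, with medians of -0.09 and -0.03. Of 8 markers of conventional dendritic cells tested, 4 were lower in spleen knockout and 5 in lymph node knockout samples, 0 of them passing, with medians of 0.03 and -0.09. The summed signal of the 9 such markers on the array ranged between 8277 and 9049 in spleen knockout, 9432 and 9715 in spleen wild-type, 7713 and 9154 in lymph node knockout, and 8133 and 9301 in lymph node wild-type samples. Other marker lists ran more strongly with Cst3, in the opposite direction. By Pearson's r with the list mean over the 8 arrays, Cst3 had -0.92 with proliferation, -0.91 with macrophage and -0.90 with plasma cell markers. With markers of mature dendritic cells it had 0.70, and with those of conventional dendritic cells -0.73. These arrays share tissue, genotype and letter. The part of all these transcripts in the Cst3 difference was not tested.

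Lgmn, which cuts after asparagine and opens antigens and precursor proteases to further processing, was lower in spleen knockout samples. It had signals of 574 and 502 on the spleen knockout arrays, against 812 and 824 on the spleen wild-type arrays, and these did not overlap. The lymph node groups overlapped, with 399.7 and 590.4 in knockout and 605 and 536 in wild-type samples. The spleen difference was -0.61 (SE 0.33, interval -1.38 to 0.16), or 1.52-fold lower in knockout, with an adjusted p of 0.678. In lymph node it was -0.23 (SE 0.33), and it turned to 0.05 without lymph node knockout array A. The test of the difference between tissues gave -0.38 (SE 0.46), with an adjusted p of 0.9994.

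Ctsd, the aspartic protease of lysosomes, had signals of 2095 and 549 in spleen knockout samples, against 462 and 377 in spleen wild-type samples. In lymph node they were 1814 and 419.5 in knockout, against 862 and 381 in wild-type samples. The spleen groups did not overlap, the lymph node groups did, and the highest signals of the 8 were those of the 2 knockout A arrays. The spleen difference of 1.36 (SE 0.88, interval -0.72 to 3.44) was 2.57-fold higher in knockout, with an adjusted p of 0.729. Without spleen knockout array A it was 0.40, and without both knockout A arrays the averaged difference of 0.98 (SE 0.62) became -0.03. In lymph node the difference of 0.61 (SE 0.88) became -0.45 without knockout array A. By group mean Ctsd stood at 1322 ± 1093 in spleen knockout, 1117 ± 986 in lymph node knockout, 622 ± 340.2 in lymph node wild-type and 419.6 ± 59.6 in spleen wild-type samples (SD, n = 2 each), and each neighbouring pair in this order overlapped.

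Ctsl, the cysteine protease best known for class II processing in thymic epithelium, had signals of 918 and 369.6 in spleen knockout, against 77.8 and 337 in spleen wild-type samples. In lymph node they were 863 and 269 in knockout, against 707 and 286 in wild-type samples. The spleen groups were apart by a small margin between knockout array B and wild-type array B, and the lymph node groups overlapped. The spleen difference was 1.85 (SE 0.92, interval -0.33 to 4.03), with an adjusted p of 0.642, and it was 1.19 without knockout array A and 0.79 without wild-type array A, the array with the low signal. In lymph node the difference of 0.10 (SE 0.92) became -0.74 without knockout array A. The difference between tissues of 1.75 (SE 1.30) had an adjusted p of 0.9994.

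Ctsb, an abundant lysosomal cysteine protease, had signals of 5107 and 2403 in spleen knockout samples, against 3297 and 2740.3 in spleen wild-type samples. The lymph node signals were 4374 and 3188 in knockout, against 2920.2 and 2996 in wild-type samples. Spleen groups overlapped, lymph node groups did not, and again the knockout A arrays held the 2 highest signals, although the lymph node groups overlapped under both other scalings. The averaged difference was 0.28 (SE 0.30, interval -0.44 to 0.996), with an adjusted p of 0.848, and -0.11 without both knockout A arrays. In spleen alone it was 0.22 (SE 0.43), and -0.32 without knockout array A.

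**Figure D2:**
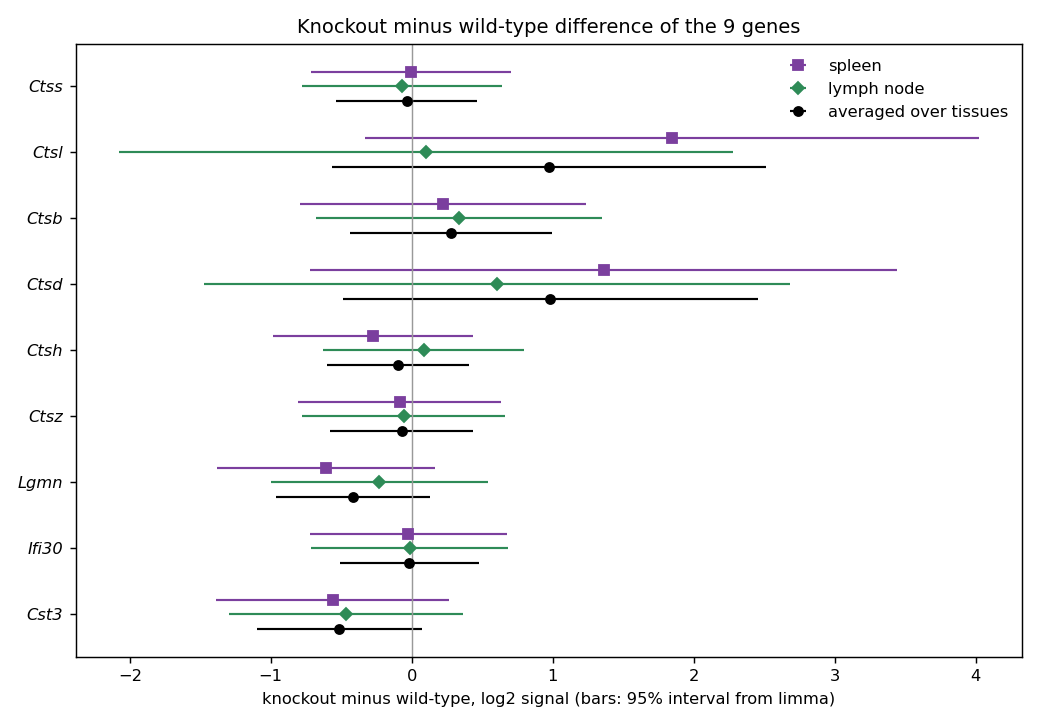
Knockout minus wild-type difference of each of the 9 genes on the log2 scale (horizontal axis) in spleen (squares), in lymph node (diamonds) and averaged over tissues (circles), with 95% intervals from limma. Every interval spans 0; those of Ctsl and Ctsd are the widest, and the averaged interval of Cst3 ends at 0.07.

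Counted together, the members' placement stayed near that of all genes. In spleen 2 of 9 members (Ctsl and Ctsd) were higher in knockout without overlap, beside 13.4% of genes tested, and 3 of 9 (Ctsh, Lgmn and Cst3) were lower, beside 23.9%. In lymph node 1 of 9 (Ctsb) was higher, beside 14.6%, and 1 of 9 (Cst3) was lower, beside 16.3%. In both tissues 0 of 9 were higher, beside 3.06%. The lymph node placement depended on the scaling. After quantile normalization 3 of 9 (Ctss, Ctsh and Ifi30) were higher there, beside 15.8% of genes, and without the shift 1 of 9 (Ctsh), beside 15.6%, with Ctsb overlapping under both. The spleen placements and the lymph node placement of Cst3 were the same under all 3 scalings. The median difference over the members was -0.02 in spleen, where that of all genes was -0.09, and -0.01 in lymph node, where that of all genes was -0.03. These member medians took the opposite sign under other scalings, at 0.05 in spleen and 0.11 in lymph node after quantile normalization and 0.09 and 0.02 without the shift, which itself moved the median of all genes in spleen by 0.11. By sign, 3 members were higher and 6 lower in spleen knockout, beside 42.6% and 57.4% of genes, and 4 were higher and 5 lower in lymph node knockout, beside 46.8% and 53.2%. Averaged over tissues the members split 3 to 6, beside 43.3% and 56.7%, and for the difference of effects 3 to 6, beside 46.2% and 53.8%.

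Between tissues no member was called or placed apart, and wide intervals remained for some. For spleen minus lymph node averaged over genotypes 0 of 9 did not overlap, beside 3.82% of genes higher and 1.90% lower in spleen. The differences ranged between -0.60 for Ctsl (SE 0.65, interval -2.14 to 0.94) and 0.33 for Lgmn (SE 0.23, interval -0.21 to 0.88). Adjusted p-values in limma were 0.667 or more. For Ctsd the interval was -1.55 to 1.39, so sizeable differences between tissues remain possible. By sign 4 members were higher and 5 lower in spleen, beside 55.7% and 44.3% of genes. The member median of -0.02 stood beside 0.06 for all genes, and became -0.13 after quantile normalization and -0.12 without the shift.

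The 3 cathepsins that peaked on the knockout A arrays did so on arrays where markers of several other cell types were also high, those of macrophages, cells rich in lysosomes, among them. Of 15 macrophage markers 14 were tested, and 12 of the 14 were higher in knockout samples in spleen and 12 in lymph node, with 0 passing and medians of 2.54 and 1.76. The summed signal of all 15 was 25232 and 4023 in spleen knockout, against 4767 and 3595 in spleen wild-type, and 19125 and 8004 in lymph node knockout, against 9164 and 3232 in lymph node wild-type samples. By mean log2 signal of the 14 tested, knockout array B also lay above both wild-type arrays. In spleen it had 7.27, against 6.73 and 5.62, and in lymph node 7.66, against 7.46 and 6.05. C1qb, a complement subunit made by macrophages, had 11272 and 986 in spleen knockout, against 1247 and 279 in spleen wild-type, and 8822 and 3432 in lymph node knockout, against 4235 and 626 in lymph node wild-type samples. Among defining markers Vsig4 was too dim to be tested, and Csf1r lay under the floor of 9.58 on spleen wild-type array B. Of 10 monocyte and neutrophil markers 3 were tested and all 3 were higher in knockout in both tissues, 0 of them passing. Sums over the 9 on the array, most of them too dim to be tested, were 19484 and 2479 in spleen knockout, between 667 and 2643 in spleen wild-type, between 2842 and 10996 in lymph node knockout and between 905 and 7903 in lymph node wild-type samples. Among these S100a8 had 2954 and 34.9 in spleen knockout, against 94.5 and 88.2 in spleen wild-type samples. Of the proliferation markers 9 were tested and all 9 were higher in knockout in both tissues, 0 of them passing. Their summed signals were 7978 and 2198 in spleen knockout, between 1481 and 2278 in spleen wild-type, between 1995 and 3886 in lymph node knockout and between 1624 and 1997 in lymph node wild-type samples. Their mean log2 signal was 8.72 and 6.71 in spleen knockout, against 5.93 and 6.24 in spleen wild-type samples. In lymph node it was 7.95 and 6.87 in knockout, against 6.33 and 5.66 in wild-type samples. Of 7 plasma cell markers 6 were tested and 6 of 6 were higher in knockout in both tissues, 0 of them passing. Sums over all 7 were 16349 and 2321 in spleen knockout, against 6201 and 3408 in spleen wild-type, and 5046 and 4409 in lymph node knockout, against 4145 and 3416 in lymph node wild-type samples. The sums of B cell markers (1966) and of T cell markers (2177) were likewise highest of the 8 on spleen knockout array A. Of 8 markers of plasmacytoid dendritic cells tested, 4 were higher in knockout in spleen and 5 in lymph node, 0 of them passing, with sums of 7181.5 and 6501 in spleen knockout, against 8465 and 8699 in spleen wild-type, and 5305 and 5625 in lymph node knockout, against 5059 and 5975 in lymph node wild-type samples. The part of these transcripts in the Ctsd, Ctsl and Ctsb values was not tested.

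**Figure D3:**
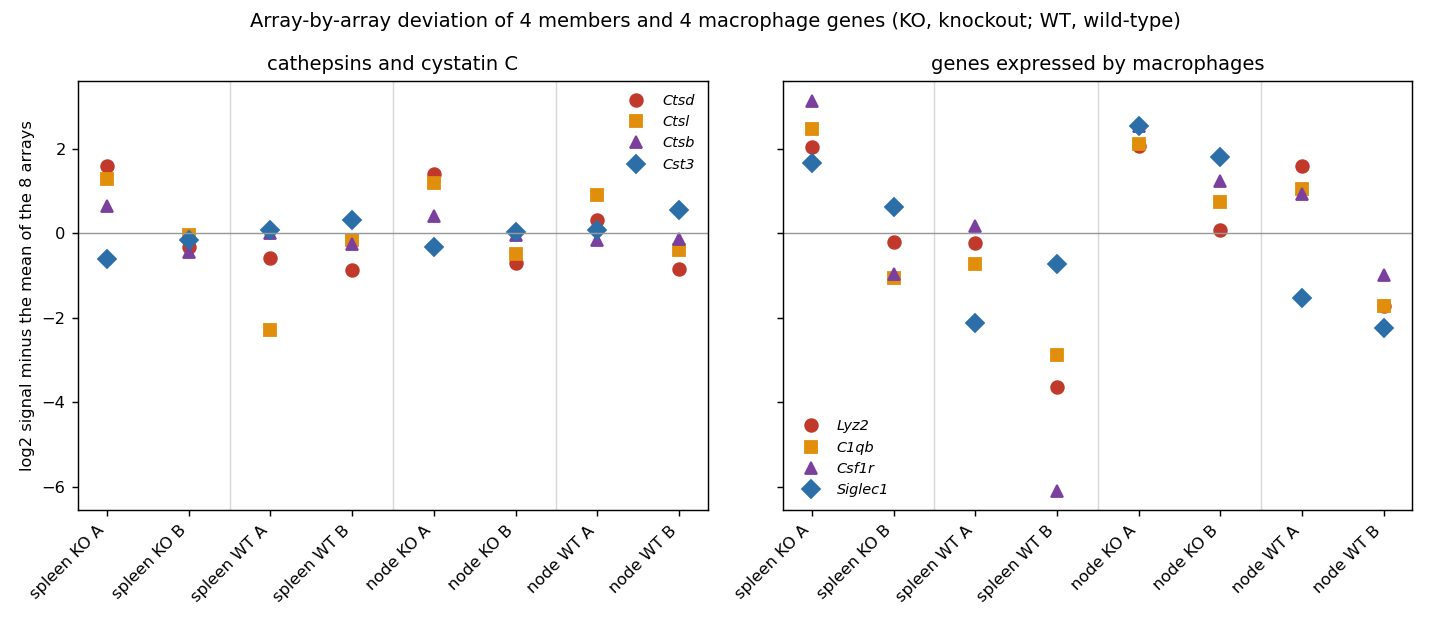
Log2 signal minus the gene's mean over the 8 arrays (vertical axis) on each array, for Ctsd, Ctsl, Ctsb and Cst3 on the left and for Lyz2, C1qb, Csf1r and Siglec1, genes expressed by macrophages, on the right, with signals under 9.58 raised to that floor. Lyz2 is counted in the monocyte and neutrophil list, and the others are examples from the 15 macrophage markers, of which 2 of 14 tested were lower in knockout in each tissue. Ctsd, Ctsl and Ctsb are highest on the 2 knockout A arrays, where Lyz2, C1qb and Csf1r are also highest, and Cst3 is lowest there.

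The genes whose signals ran most alike to those of the widest-ranging members over the 8 arrays, by Pearson's r across arrays that share tissue, genotype and letter, were these. Ctsd ran closest to Plk1 (0.99), Rxra (0.98) and Incenp (0.97). Ctsl ran closest to Cops4 (0.98), Cd300a (0.98) and Surf6 (0.97), and Cst3 to B4galnt1 (0.98), Iscu (0.97) and Asap2 (0.96). These are the 3 highest of 10977 candidates for each member, so high values arise by selection.

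Several members were read by more than 1 probe set. Ctsb had 5, and their averaged differences ranged between 0.09 (SE 0.45) and 0.65 (SE 0.25), but in spleen the probe set 1417491_at gave -0.44 (SE 0.63) where the other 4 gave between 0.22 and 0.42. The dimmer Ctsb probe set 1444987_at had signals of 331 and 296 in lymph node knockout, against 133 and 172 in lymph node wild-type samples, without overlap, and a lymph node difference of 1.05 (SE 0.35). The 2 Ctsh probe sets gave -0.21 and -0.27 in spleen, and -0.08 and 0.08 in lymph node. The 3 Ctsz probe sets gave averaged differences between -0.07 and -0.01. The second Ctsl probe set, 1457724_at, was too dim to be tested, with signals of at most 31.3 and under the floor on 5 of 8 arrays, and averaging it in turned the lymph node difference of Ctsl to -0.37. Among the 16 member probe sets tested, the lowest adjusted p of the averaged difference was 0.625 over all 21805 named probe sets.

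**Figure D4:**
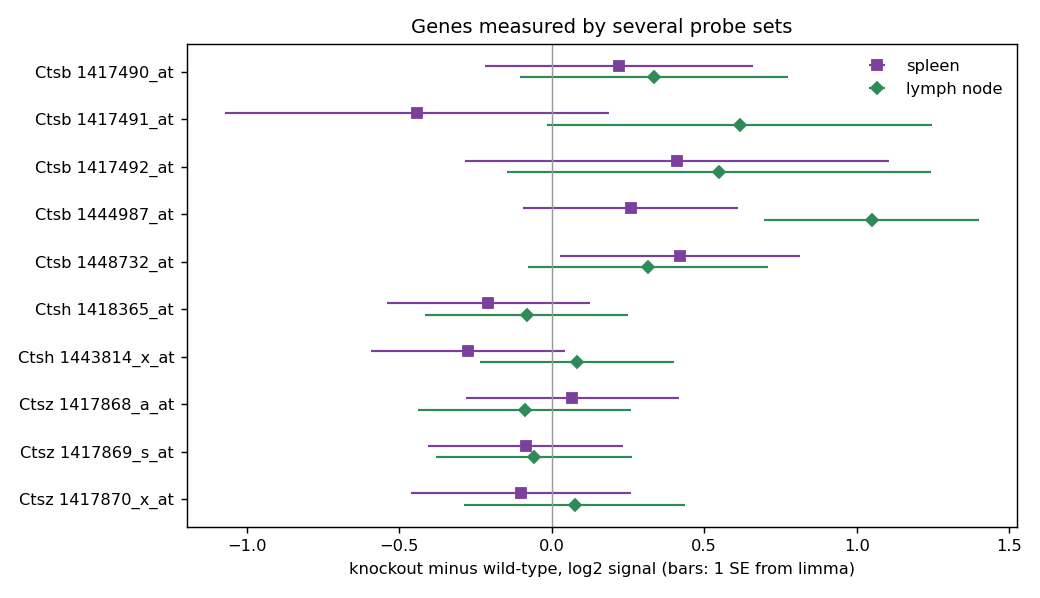
Knockout minus wild-type difference on the log2 scale (horizontal axis, bars 1 SE from limma) for each tested probe set of Ctsb, Ctsh and Ctsz, in spleen (squares) and lymph node (diamonds). The Ctsb probe sets spread between -0.44 and 1.05, and those of Ctsh and Ctsz between -0.27 and 0.08.

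Around these genes, the rest of the endosomal pathway was read from 8 lists with tested members, and 0 genes of any list passed in any comparison. Among the other cathepsins 6 of 9 were tested, of which 3 were higher and 3 lower in knockout averaged over tissues, with a median of 0.07 beside -0.06 for all genes. Ctsc, which activates granule proteases, had signals of 3868 and 3111 in spleen knockout, against 3056 and 2609.5 in spleen wild-type, and 3131 and 4233 in lymph node knockout, against 2554 and 2932 in lymph node wild-type samples, without overlap in either tissue, a placement shared by 3.06% of genes tested. Ctse, an endosomal aspartic protease, was highest on the 2 knockout A arrays as Ctsd was, with 7203 and 3816 in spleen knockout, against 3496 and 4303 in spleen wild-type, and 6887 and 4295 in lymph node knockout, against 4455 and 4141 in lymph node wild-type samples. The placental cathepsin cluster had 8 genes on the array and 0 tested.

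Inhibitors other than Cst3 were split. Of 5 tested, 3 were higher and 2 lower averaged over tissues, with a median of 0.49. Cst6, another secreted cystatin, was lower by placement in lymph node, as were 16.3% of genes tested, at 39.3 and 34.8 in knockout and 111 and 117 in wild-type samples, with an averaged difference of -1.17 (SE 0.31, adjusted p 0.40). Ctla2b, a mouse gene that resembles a cathepsin propeptide, had 67.3 and 63.0 in spleen knockout, against 33.7 and 35.7 in spleen wild-type, and 56.1 and 119 in lymph node knockout, against 40.02 and 49.5 in lymph node wild-type samples. It was above the filter on 3 arrays, all of them knockout. Ctla2b was thus tested, and counted among the inhibitors higher in knockout, only through the group in which it was high.

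The delivery route to lysosomes is served by sorting receptors. Igf2r, which carries newly made cathepsins bearing mannose 6-phosphate, had signals of 728 and 1199 in spleen knockout, against 2159 and 1869 in spleen wild-type, and 388 and 703 in lymph node knockout, against 886 and 1308 in lymph node wild-type samples. The knockout groups lay below the wild-type groups in each tissue, as for 5.71% of genes tested, with an averaged difference of -1.07 (SE 0.31, adjusted p 0.451). Sort1, a further sorting receptor of that route, had 918 and 819.5 in spleen knockout, against 2448 and 1635 in spleen wild-type samples, and overlapped in lymph node. Lrp1, an endocytic receptor, had 136 and 44.4 in spleen knockout, against 22.7 and 37.3 in spleen wild-type, and 59.5 and 49.6 in lymph node knockout, against 35.5 and 28.6 in lymph node wild-type samples. It was higher in knockout without overlap in each tissue, as for 3.06% of genes tested, with an averaged difference of 1.10 (SE 0.40, adjusted p 0.552). Lrp1 was above the filter on only 2 arrays, the knockout A ones. It was thus tested only through the group in which it was high, and its placement is a description only. Of the 7 genes of this list tested, 5 were lower in knockout averaged over tissues and 7 of 7 higher in spleen than in lymph node, with medians of -0.24 and 0.67, beside -0.06 and 0.06 for all genes.

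Among regulators of lysosomal genes, whose E-box appears in the printed Ctsd and Ifi30 windows, Tfeb had signals of 205 and 230.1 in spleen knockout, against 380.3 and 464 in spleen wild-type, and 213 and 93.9 in lymph node knockout, against 250.5 and 207 in lymph node wild-type samples. Mitf had 156 and 61.1 in spleen knockout, against 12.7 and 26.8 in spleen wild-type, and 229 and 38.5 in lymph node knockout, against 107 and 27.2 in lymph node wild-type samples, highest on both knockout A arrays. Of 16 genes of this list, subunits of the proton pump included, 5 were higher and 11 lower averaged over tissues, with a median of -0.12. The 18 lysosomal hydrolases tested split 9 to 9 (median 0.06), and the 16 genes of the lysosomal membrane and cofactors 8 to 8 (median 0.00). Ctns, which exports cystine out of lysosomes, had 63.2 and 131 in spleen knockout, against 279 and 248 in spleen wild-type, and 76.8 and 44.0 in lymph node knockout, against 56.6 and 79.3 in lymph node wild-type samples. It was lower in knockout without overlap in spleen, as were 23.9% of genes tested, and overlapped in lymph node, with an averaged difference of -0.87 (SE 0.33, adjusted p 0.593). Slc11a1, the metal transporter of phagosomes, had 319 and 92.2 in spleen knockout, against 43.8 and 95.4 in spleen wild-type, and 339 and 159.9 in lymph node knockout, against 94.1 and 94.8 in lymph node wild-type samples.

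The class II molecules that receive the peptides had 3 genes higher and 6 lower of 9 tested, with a median of -0.10. H2-Ab1 and H2-Oa, named after their values were seen, were the 2 of 9 that were lower in knockout without overlap in both tissues, beside 5.71% of genes. H2-DMa, part of the peptide exchange factor, had 1329 and 537 in spleen knockout, against 753 and 554 in spleen wild-type, and 1529 and 932 in lymph node knockout, against 922 and 532 in lymph node wild-type samples. Its modulator H2-Ob had 1948 and 408 in spleen knockout, against 503 and 413 in spleen wild-type, and 1352 and 1019 in lymph node knockout, against 1009 and 799 in lymph node wild-type samples. Both were highest on one or the other knockout A array. Cybb, the catalytic subunit of the phagosomal oxidase, which slows proteolysis in dendritic cell phagosomes, had 2150 and 268 in spleen knockout, against 171 and 83.6 in spleen wild-type, and 1818 and 409 in lymph node knockout, against 729 and 209 in lymph node wild-type samples. Cyba, its membrane partner, had 1061 and 1364 in spleen knockout, against 1955 and 1800.1 in spleen wild-type, and 1111 and 963 in lymph node knockout, against 1125 and 1253 in lymph node wild-type samples, lower without overlap in both tissues, as for 5.71% of genes tested. Its averaged difference was -0.42 (SE 0.22, adjusted p 0.682). Of the 5 oxidase genes tested 2 were higher and 3 lower, with a median of -0.17.

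**Figure D5:**
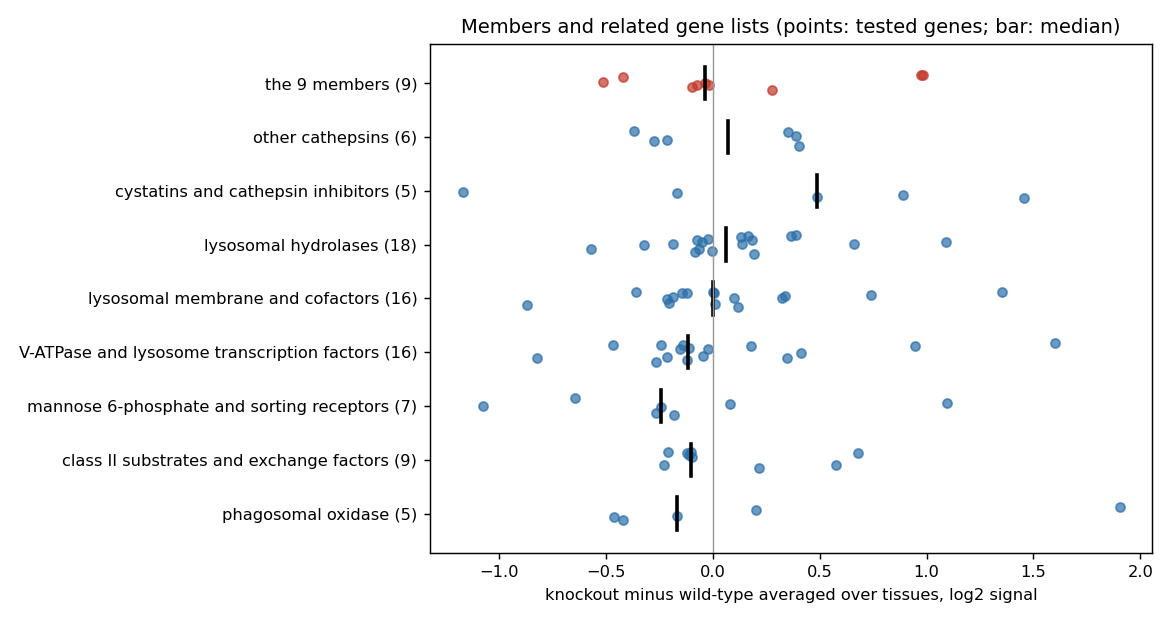
Knockout minus wild-type difference averaged over tissues on the log2 scale (horizontal axis) for the 9 members (red) and for the tested genes of 8 related lists (blue), with a black bar at each list's median and the number of genes in brackets. The member median of -0.03 lies near that of all genes, -0.06, and the members range between -0.51 and 0.98.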

How the data were processed

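The files hold signal intensity per probe set on a linear scale, deposited by the authors and made with MAS5 per the submitters' processing notes, in which version and target value are not stated. The 2% trimmed mean of every deposited array came to 250. Of 45101 probe sets 64 controls were left out, and 34945 of the others carried 1 gene symbol. Arrays were shifted to a common median, signals under the 20th percentile (9.58) were raised to it, and log2 was taken. Each gene was represented by its probe set with the highest mean. Genes above the pooled median of 59.0 on at least 2 arrays were tested. In R 4.3.3, limma 3.58.1 fitted 4 group means to 8 arrays, with 4 residual degrees of freedom and 2.96 from the prior, and p was adjusted by Benjamini-Hochberg over all genes. The script was tested on simulated data. The number of arrays limits the precision. The members and gene lists were chosen with earlier results of these data known. Named are the members, Aire and, per pathway list, some of the up to 2 genes with the smallest p for genotype and the up to 2 for tissue. Outside this rule are the genes that ran most alike, Xist and Eif2s3y, the cell markers C1qb, S100a8, Vsig4, Csf1r, Lyz2 and Siglec1, and H2-Ab1 and H2-Oa. Alternatives covered scaling, floor, filter, probe sets, prior, the letters as a block, a Y-linked covariate and left-out arrays. Arrays of the same letter deviated together with correlations between 0.055 and 0.31 over 6 pairs of groups. Between spleen and lymph node of one genotype they were 0.31 for knockout, the highest, and 0.065 for wild-type. The fit did not take the letters to pair samples. As the sex-linked signals matched between tissues by genotype and letter, spleen and lymph node arrays may share animals, and the fit treats them as independent.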

Additional observations from a re-analysis of the deposited data

How the results depend on the processing

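Over 1008 member values in 23 settings, 0 passed the adjusted threshold and 88 took the opposite sign to the value reported; the lowest adjusted p was 0.172. All differences here are log2. Values near 0 turned with scaling. After quantile normalization Ctss became 0.079 in spleen, 0.0503 in lymph node, 0.065 averaged over tissues and -0.047 between tissues, Ctsz 0.032, 0.041 and 0.036 in spleen, in lymph node and averaged, Ifi30 0.0504, 0.11 and 0.078 in that order, and Ctsh 0.028 averaged. Without the shift to a common median Ctss became 0.11 in spleen, 0.0398 averaged and -0.067 between tissues, Ctsz 0.025 in spleen, 0.00280 averaged and 0.044 for the difference of effects, and Ifi30 0.087 in spleen, 0.025 in lymph node, 0.056 averaged, 0.062 for the difference of effects and -0.0198 between tissues. With the mean of probe sets Ctsl became -0.37 in lymph node and Ctsb 0.012 between tissues, and with a Y-linked covariate Ctsh became -0.00534 in lymph node. Without both knockout A arrays Ctss became 0.024 and Ctsb -0.32 in spleen, Ctsl -0.74, Ctsd -0.45, Ctsz 0.0197 and Lgmn 0.052 in lymph node, and Ctsb -0.11 and Ctsd -0.027 averaged. Without both knockout B arrays Ctsh became -0.0098 and Ifi30 0.00367 in lymph node, Ifi30 0.000143 averaged, Ctsb 0.20 and Ctsz 0.0801 for the difference of effects, and Ctsb 0.12 and Ctsh 0.056 between tissues. The cause of these turns was not tested. Leaving out each array in turn gave these ranges where a sign turned. In spleen they were -0.0295 to 0.024 for Ctss, -0.32 to 0.76 for Ctsb, -0.25 to 0.081 for Ctsz and -0.098 to 0.051 for Ifi30. In lymph node they were -0.26 to 0.13 for Ctss, -0.74 to 0.94 for Ctsl, -0.45 to 1.66 for Ctsd, -0.076 to 0.24 for Ctsh, -0.17 to 0.058 for Ctsz, -0.17 to 0.14 for Ifi30 and -0.51 to 0.052 for Lgmn. Averaged over tissues they were -0.13 to 0.062 for Ctss, -0.15 to 0.011 for Ctsz and -0.094 to 0.057 for Ifi30. For the difference of effects they were -0.13 to 0.26 for Ctss, -0.66 to 0.43 for Ctsb, -0.30 to 1.81 for Ctsd, -0.19 to 0.14 for Ctsz, -0.16 to 0.14 for Ifi30, -0.33 to 0.14 for Cst3 and -0.14 to 0.14 for the member median. Between tissues they were -0.066 to 0.13 for Ctss, -0.31 to 0.24 for Ctsb, -0.61 to 0.45 for Ctsd and -0.10 to 0.056 for Ctsh. Cst3 averaged over tissues stayed between -0.72 and -0.31 over its 22 settings. The count of all genes called, 0 in each comparison as reported, changed in some settings. Between tissues it was 1 after quantile normalization, 1 without the shift, 3 with the floor at the 40th percentile, 1 with no filter, 19 with a stricter filter, 1 with the mean of probe sets, 48 with a trended robust prior, and 0 to 2 with single arrays left out (2 without spleen knockout array A). Averaged over tissues it was 2 with the floor at the 40th percentile, 3 with the stricter filter, 6 with the trended prior, and 0 to 2 with single arrays left out (2 without spleen knockout array B). In spleen it was 1 with the stricter filter and 1 with the trended prior. With the letters as a replicate block it stayed at 0 in all 5 comparisons, with 1208 genes at an unadjusted p under 0.05 in spleen, against 973 without the block, and the block changed no member's call. With a block for the letters within each genotype, the count stayed at 0 for the difference of effects and between tissues. Between tissues 1488 genes then had an unadjusted p under 0.05 in limma, against 1242 without the block. Signals near the floor carry little information, which among the members' probe sets touches the second Ctsl one, and elsewhere bears on Csf1r and on the dimmest Mitf signals.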

Other observations

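The probe set 1453984_at, annotated to both Ifi30 and Pik3r2 and therefore in no comparison, had signals of 11.9 and 5.85 in spleen knockout, against 15.5 and 58.4 in spleen wild-type, and 18.9 and 38.9 in lymph node knockout, against 53.1 and 45.6 in lymph node wild-type samples. The signals lay near the floor on several arrays, and which of the 2 genes they read is not known.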
